A study of Mus musculus with 30 samples.

Results

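The PGC-1 coactivators and their partners were followed through 7 genes, Ppargc1a, Ppargc1b, Esrra, Esrrg, Nrf1, Gabpa and Tfam, in C2C12 cells. Every probe set whose platform annotation carries exactly 1 of these symbols was taken, which gave 19 of the 45101 probe sets on the array. Ppargc1a has 5 of them, Nrf1 has 4, Esrrg has 3, Esrra, Gabpa and Tfam have 2 each and Ppargc1b has 1. C2C12 is a mouse myoblast line that fuses into myotubes when serum is lowered and takes an osteoblastic course when BMP2, a bone morphogenetic protein, is added. The C2C12-pMirn378 line carries a lentiviral construct with the miR-378 precursor, and the C2C12-pMirn0 line carries the parent lentiviral vector. Both vectors also express the green reporter copGFP, by which the transduced cells were sorted, and each line is 1 stable sorted population. RNA was taken at d0, and at d3 and d6 of low-serum culture with 300 ng/ml recombinant human BMP2 or without it (untreated), in triplicate experiments, which gave 30 arrays in 10 groups of 3. The p-values therefore measure the spread between experiments with 1 line per construct, not between independently made lines.

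PGC-1α and PGC-1β, the products of Ppargc1a and Ppargc1b, are transcriptional coactivators: they do not bind DNA themselves but are brought to genes by transcription factors. Among these are the estrogen-related receptors ERRα (Esrra) and ERRγ (Esrrg), orphan nuclear receptors of oxidative metabolism, and the nuclear respiratory factors NRF1 and GABP, of which Gabpa encodes the DNA-binding subunit. Tfam, a known target of these factors, encodes the protein that packages mitochondrial DNA and starts its transcription. In skeletal muscle PGC-1α is known for driving mitochondrial biogenesis and the oxidative fibre programme. Ppargc1b also hosts miR-378 in an intron.

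Levels are log2 intensities, and a difference between groups is a difference of mean log2 levels (a log2 ratio). A probe set was called when its log2 ratio was above 0.6 or below -0.6 with a limma adjusted p under 0.005, adjusted by Benjamini-Hochberg over all 45101 probe sets. For orientation, the median of all values on the arrays was 6.26 on the log2 scale. Esrra, Gabpa and Tfam lay above this median on all 30 arrays with both of their probe sets, as did Ppargc1b and 3 of the 4 Nrf1 probe sets. The Ppargc1a probe sets passed it on 5 to 12 arrays, and 17 or 18 of the 30 arrays had an intensity under 50 for each of them. The 3 Esrrg probe sets passed it on 9, 6 and 0 arrays. The low Ppargc1a and Esrrg values scattered widely between replicates, so that these 2 genes have the largest standard errors of the 7. Array medians lay between 68.0 and 82.7 intensity units, and no array was left out. The 6 muscle markers fixed for the check of the cell type (Myod1, Myog, Des, Ckm, Myh3 and Acta1) were at or above the median in all 10 groups.

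The members' calls fell into 3 patterns. Over time without BMP2, 6 of the 19 probe sets were called at d3 over d0 in C2C12-pMirn378 cells (31.6%, against 19.7% of all probe sets) and 7 at d6 over d0 (36.8%, against 20.9%). In C2C12-pMirn0 cells 6 were called at d3 over d0 (18.1% of all probe sets) and 7 at d6 over d0 (20.2% of all probe sets). The calls upward were of Ppargc1a and, in C2C12-pMirn378 cells, of 1 Esrrg probe set. The calls downward were of Nrf1. Counted as genes, 2 were called higher and 1 lower in C2C12-pMirn378 cells, and 1 higher and 1 lower in C2C12-pMirn0 cells. Probe sets of 1 gene are not independent, so that the members' shares depend on how many probe sets a gene has.

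Over time with BMP2, 3 probe sets were called in each of the 4 comparisons with d0, all lower, and none of them belonged to Ppargc1a. The share called of all probe sets was 20.7% at d3 and 21% at d6 in C2C12-pMirn378 cells and 18.3% at d3 and 18.1% at d6 in C2C12-pMirn0 cells, so that the members' 15.8% was no higher than this background. Of all probe sets, 9.82% at d3 and 10.3% at d6 were called lower in C2C12-pMirn378 cells and 8.27% at d3 and 8.98% at d6 in C2C12-pMirn0 cells. Between d3 and d6 no member was called in C2C12-pMirn378 cells untreated (1.83% of all probe sets), in C2C12-pMirn378 cells with BMP2 (5.7%) or in C2C12-pMirn0 cells with BMP2 (2.46%), and Ppargc1b alone was called in untreated C2C12-pMirn0 cells (1.94%).

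Members of the coactivator branch were lower with BMP2. Against untreated cells of the same line and day, 5 of 19 were called at d3 in C2C12-pMirn378 cells (26.3%, against 18% of all probe sets) and 3 at d6 (15.8%, against 17.4%). In C2C12-pMirn0 cells 6 were called at d3 (31.6%, against 15.4%) and 6 at d6 (31.6%, against 17.9%). Of these 20 calls, 19 were lower with BMP2, 18 of them of Ppargc1a or Ppargc1b and 1 of Esrrg. The share of all probe sets called lower was 8.11% at d3 and 8.71% at d6 in C2C12-pMirn378 cells and 6.75% at d3 and 8.24% at d6 in C2C12-pMirn0 cells. The call that was higher with BMP2 was of an Nrf1 probe set.

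Ppargc1a was low in proliferating myoblasts and high in untreated differentiating cells. With probe set 1460336_at, the brightest of the 5, untreated C2C12-pMirn378 cells had log2 levels of 5.13, 5.38 and 4.92 at d0, 6.97, 7.06 and 7.23 at d3 and 7.41, 6.76 and 7.29 at d6. Untreated C2C12-pMirn0 cells had 4.63, 5.21 and 4.77 at d0, 7.43, 7.33 and 7.33 at d3 and 8.01, 8.19 and 7.93 at d6. In both lines every array of d3 and d6 lay above every array of d0. The log2 ratio of d3 over d0 was 1.94 in C2C12-pMirn378 cells (SE 0.49, limma adjusted p = 0.00285) and 2.50 in C2C12-pMirn0 cells (limma adjusted p = 0.00026). That of d6 over d0 was 2.01 in C2C12-pMirn378 cells (limma adjusted p = 0.00197) and 3.18 in C2C12-pMirn0 cells (limma adjusted p = 1.3e-05). In C2C12-pMirn378 cells the d3 call was lost in all 6 fits that left out 1 array (1.83 to 2.06, highest limma adjusted p of 0.0137), and the d6 call was lost without d0 replicate 1 or 3 or without d6 replicate 1 or 3 (1.89 to 2.21 over the 6 arrays left out, highest limma adjusted p of 0.0107). Both C2C12-pMirn0 calls were kept in all 6 fits, as were those of 1456395_at in both lines.

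The other 4 Ppargc1a probe sets ran the same way. Over the 5, the log2 ratio of d6 over d0 without BMP2 spanned 1.52 to 3.00 in C2C12-pMirn378 cells, with 3 of 5 called, and 1.89 to 3.27 in C2C12-pMirn0 cells, with 4 of 5 called. Probe set 1437751_at was called in neither line.

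The levels of these 4 probe sets show the same division of the arrays. With 1456395_at, the least scattered of the 5, the lowest and highest of the 3 arrays of a group were 4.71 to 4.96 at d0, 4.99 to 5.16 at d3 with BMP2, 6.42 to 6.92 at d3 untreated, 3.98 to 5.40 at d6 with BMP2 and 6.52 to 6.74 at d6 untreated in C2C12-pMirn378 cells. In C2C12-pMirn0 cells they were 4.58 to 5.43 at d0, 4.37 to 5.08 at d3 with BMP2, 6.72 to 6.94 at d3 untreated, 4.56 to 4.73 at d6 with BMP2 and 7.37 to 7.61 at d6 untreated. The untreated arrays of d3 and d6 all lay above the others. Probe set 1437751_at spanned 4.96 to 5.55 at d0, 3.78 to 5.26 at d3 with BMP2, 6.61 to 6.85 at d3 untreated, 5.02 to 5.34 at d6 with BMP2 and 6.54 to 6.97 at d6 untreated in C2C12-pMirn378 cells. In C2C12-pMirn0 cells it spanned 4.50 to 6.10 at d0, 2.84 to 5.45 at d3 with BMP2, 6.97 to 7.03 at d3 untreated, 2.52 to 5.31 at d6 with BMP2 and 6.96 to 7.27 at d6 untreated. Again every untreated array of d3 and d6 was above the rest, although the lower ones spread over several log2 units. The 2 dimmest probe sets share this shape. Probe set 1434100_x_at, whose suffix marks probes that may also match other transcripts, read 4.32, 4.60 and 3.02 at d0, 3.36, 3.58 and 1.97 at d3 with BMP2, 6.15, 6.53 and 6.33 at d3 untreated, 3.57, 4.41 and 4.48 at d6 with BMP2 and 5.94, 6.20 and 6.16 at d6 untreated in C2C12-pMirn378 cells. For C2C12-pMirn0 cells its levels were 4.59, 4.19 and 3.47 at d0, 4.56, 3.81 and 4.80 at d3 with BMP2, 7.32, 6.76 and 6.31 at d3 untreated, 3.98, -0.21 and 2.55 at d6 with BMP2 and 6.94, 7.43 and 7.63 at d6 untreated. The lowest of all, 1 array of C2C12-pMirn0 at d6 with BMP2, was under an intensity of 1. Probe set 1434099_at read 3.21, 2.57 and 2.63 at d0, 4.74, 3.83 and 4.22 at d3 with BMP2, 6.14, 5.76 and 6.06 at d3 untreated, 4.59, 3.93 and 4.55 at d6 with BMP2 and 5.85, 5.71 and 5.87 at d6 untreated in C2C12-pMirn378 cells. Its C2C12-pMirn0 levels were 3.41, 3.66 and 3.90 at d0, 3.63, 2.87 and 0.81 at d3 with BMP2, 6.40, 6.85 and 6.21 at d3 untreated, 3.78, 4.40 and 0.12 at d6 with BMP2 and 7.05, 6.60 and 7.12 at d6 untreated. The 5 probe sets read the same gene and are not independent measurements of it. Over the 10 group means their pairwise Pearson correlations were 0.86 to 0.98.

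With BMP2 the brightest probe set, 1460336_at, stayed near its d0 level. The 2 dimmest departed from theirs in directions that differed with the line or the day. In C2C12-pMirn378 cells 1434099_at had means of 4.26 at d3 and 4.36 at d6 with BMP2, against 2.81 at d0. In C2C12-pMirn0 cells its means were 2.44 at d3 and 2.77 at d6 with BMP2, against 3.65 at d0. For 1434100_x_at, C2C12-pMirn378 cells had means of 2.97 at d3 and 4.15 at d6 with BMP2, against 3.98 at d0. In C2C12-pMirn0 cells 1434100_x_at was at -1.98 at d6 with BMP2 over d0 (limma adjusted p = 0.0267). Without BMP2 replicate 1 of d6 it was called, at -2.92 (limma adjusted p = 0.000767). At d3, 1460336_at had log2 levels of 3.34, 5.19 and 5.06 in C2C12-pMirn378 cells with BMP2, against 6.97, 7.06 and 7.23 untreated. In C2C12-pMirn0 cells it had 4.64, 5.19 and 4.62 with BMP2, against 7.43, 7.33 and 7.33 untreated. At d6, C2C12-pMirn378 cells had 4.98, 4.43 and 5.52 with BMP2, against 7.41, 6.76 and 7.29 untreated. At the same day, C2C12-pMirn0 cells had 4.72, 5.78 and 2.96 with BMP2, against 8.01, 8.19 and 7.93 untreated. No BMP2 array reached an untreated array of its line and day.

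At d3 the Ppargc1a log2 ratio of BMP2 over untreated was -2.55 in C2C12-pMirn378 cells (95% interval -3.57 to -1.54, limma adjusted p = 0.000201) and -2.55 in C2C12-pMirn0 cells (-3.57 to -1.53, limma adjusted p = 0.000242). At d6 it was -2.18 in C2C12-pMirn378 cells (-3.20 to -1.16, limma adjusted p = 0.0011) and -3.56 in C2C12-pMirn0 cells (-4.57 to -2.54, limma adjusted p = 3.28e-06), where all 5 probe sets were called, at -2.88 to -5.23. Set against d0, the level of 1460336_at at d6 with BMP2 was -0.17 in C2C12-pMirn378 cells and -0.38 in C2C12-pMirn0 cells, and neither was called. The d6 call of 1460336_at in C2C12-pMirn378 cells was lost without untreated replicate 1 or 3 or without BMP2 replicate 2, at -2.45 to -1.91 over the 6 arrays left out (highest limma adjusted p of 0.00957), while that of 1456395_at, at -1.97, was kept in all 6. Most values with BMP2 and at d0 were under an intensity of 50.

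In sum, the muscle markers were highest in the untreated groups of d3 and d6, like Ppargc1a, and the osteoblast markers were higher with BMP2. Myod1 ran otherwise, with a mean intensity of 2979 at d0 in C2C12-pMirn378 cells, against 2721 at d3 and 2026 at d6 untreated. In untreated C2C12-pMirn0 cells it was 2684 at d0, 2895 at d3 and 2348 at d6. With BMP2, 2 of 4 measured osteoblast markers reached the median in C2C12-pMirn0 cells and 3 in C2C12-pMirn378 cells, against 1 without it. Of the 2 adipocyte markers measured, 1 reached it with BMP2. At d0 the 6 muscle markers summed to an intensity of 27333 to 29279 in C2C12-pMirn378 cells and 29663 to 30074 in C2C12-pMirn0 cells, and the osteoblast markers to 174 to 221 in C2C12-pMirn378 cells and 182 to 269 in C2C12-pMirn0 cells. The summed intensity of the 6 muscle markers at d6 was 9039 to 10575 in C2C12-pMirn378 cells with BMP2, against 66774 to 78498 untreated, and 14861 to 16520 in C2C12-pMirn0 cells with BMP2, against 78419 to 88334 untreated. The 4 osteoblast markers measured of 6 listed summed at d6 to 6020 to 7705 in C2C12-pMirn378 cells with BMP2, against 208 to 218 untreated, and to 2735 to 3139 in C2C12-pMirn0 cells with BMP2, against 204 to 233 untreated. The 2 adipocyte markers measured of 4 listed were also higher with BMP2 in sum, at d6 with 2593 to 2713 in C2C12-pMirn378 cells and 3988 to 4186 in C2C12-pMirn0 cells, against at most 80.6 in any untreated array of d6. The 3 macrophage markers summed to 120 to 210 and the 3 endothelial markers to 45.9 to 176 over all arrays. The part of the cell make-up in the members' results was not tested, and in bulk RNA fewer muscle cells and less RNA of a gene per cell cannot be told apart.

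**Figure D1:**
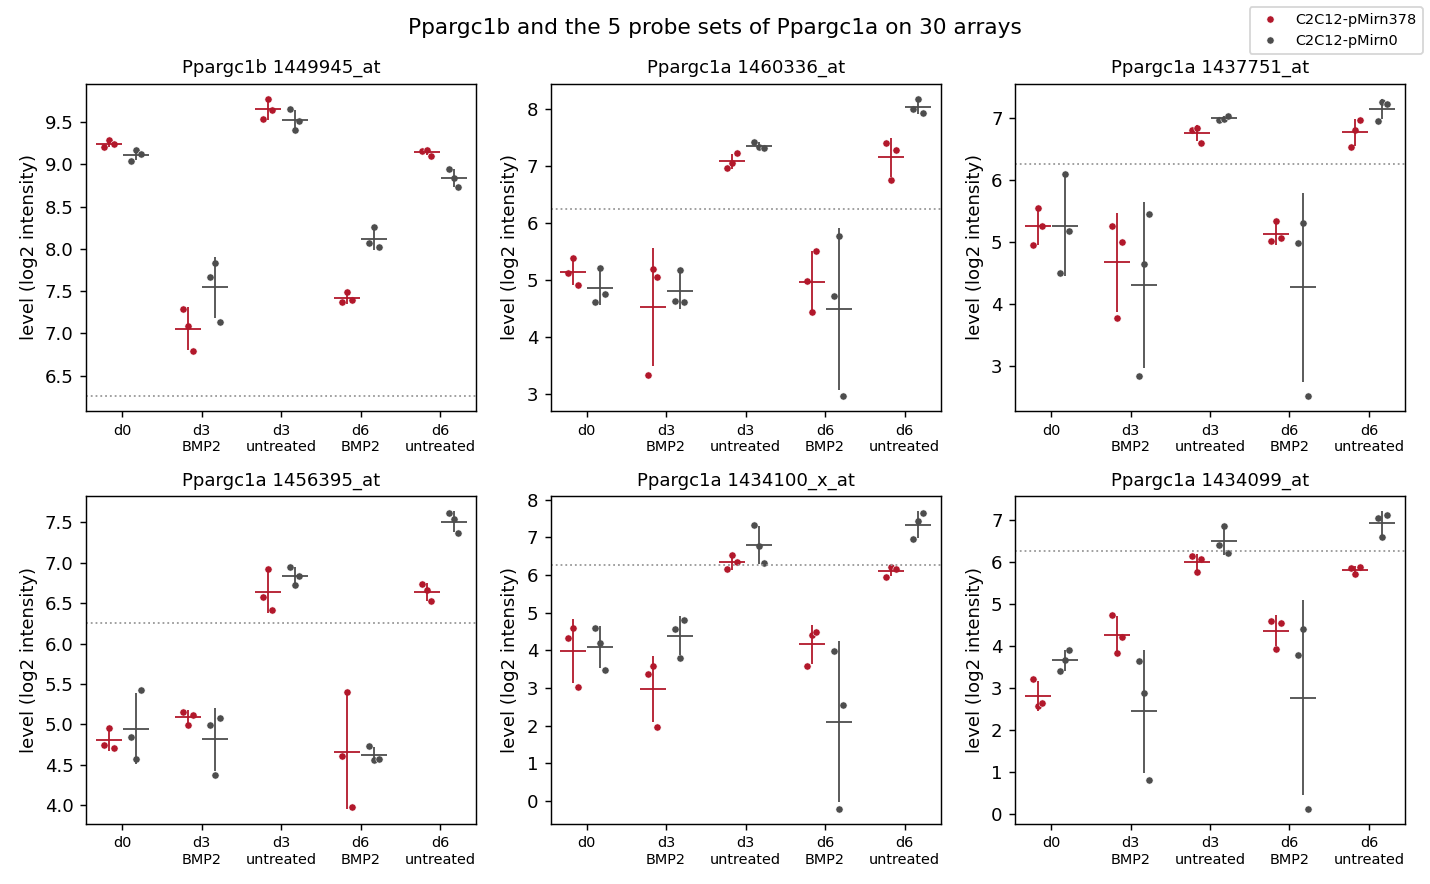
Log2 intensity (vertical axis) of Ppargc1b and of the 5 Ppargc1a probe sets in each of the 30 arrays, by day and BMP2 (horizontal axis), with C2C12-pMirn378 in red left of C2C12-pMirn0 in grey. Points are arrays, horizontal bars are means, vertical bars are ± 1 SD (n = 3) and the dotted line is the median of all values, 6.26; every BMP2 point of Ppargc1a probe set 1460336_at lies under the untreated points of its day, and Ppargc1b has its lowest mean, 7.06, in C2C12-pMirn378 cells at d3 with BMP2.

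The proximal promoter of Ppargc1a is shown because muscle regulators are known to act on this gene through it. The sequence is that of RefSeq for the mouse build GRCm38.p6, chr5:51567726-51567975, minus strand, the 250 bases before the start site, 5′ to 3′, with matches in capitals.
Ppargc1a: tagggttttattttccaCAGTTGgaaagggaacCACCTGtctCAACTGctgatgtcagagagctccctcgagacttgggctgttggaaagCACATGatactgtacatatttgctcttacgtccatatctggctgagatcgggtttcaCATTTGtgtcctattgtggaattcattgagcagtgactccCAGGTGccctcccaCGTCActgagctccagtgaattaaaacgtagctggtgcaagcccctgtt
The capitals mark 6 E-boxes (CANNTG, the letters bound by MyoD-family factors, on both strands) and 1 short CRE (TGACG, bound by CREB-family factors). The short CRE lies on the strand opposite to the printed one, at positions -49 to -45 from the start site, and reads CGTCA as printed. Of the 32851 promoters of this length in the table, 66.2% hold an E-box, 0.274% hold at least 6, and 17.8% hold a short CRE. Neither the MEF2 motif (CTA and TAG with any 4 bases between them) nor the ERR core (AAGGTCA), searched on both strands, matched in this window. A match is a description of the letters and not a measured binding site.

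Ppargc1b followed another course. It was high at d0, stayed high without BMP2 and was lower with it. Untreated C2C12-pMirn378 cells had log2 levels of 9.21, 9.29 and 9.24 at d0, 9.53, 9.78 and 9.64 at d3 and 9.16, 9.17 and 9.10 at d6. Untreated C2C12-pMirn0 cells had 9.04, 9.17 and 9.12 at d0, 9.65, 9.40 and 9.51 at d3 and 8.95, 8.84 and 8.73 at d6. The d3 arrays were the highest of each line, at log2 ratios over d0 of 0.40 in C2C12-pMirn378 cells (limma adjusted p = 0.0211) and 0.41 in C2C12-pMirn0 cells (limma adjusted p = 0.0198), neither of them called. The fall at d6 over d3 was called in C2C12-pMirn0 cells (-0.68, limma adjusted p = 0.00171), a call that was lost without d3 replicate 1 or 3 or without d6 replicate 2 or 3, at -0.74 to -0.62 over the arrays left out. In C2C12-pMirn378 cells it was -0.50 (limma adjusted p = 0.021).

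With BMP2, C2C12-pMirn378 cells had Ppargc1b levels of 7.29, 7.09 and 6.79 at d3, against 9.53, 9.78 and 9.64 untreated, and 7.37, 7.50 and 7.39 at d6, against 9.16, 9.17 and 9.10 untreated. C2C12-pMirn0 cells with BMP2 had 7.66, 7.83 and 7.14 at d3, against 9.65, 9.40 and 9.51 untreated, and 8.07, 8.25 and 8.02 at d6, against 8.95, 8.84 and 8.73 untreated. Every one of these 12 arrays lay under every array without BMP2. The log2 ratio of BMP2 over untreated at d3 was -2.59 in C2C12-pMirn378 cells (SE 0.13, limma adjusted p = 3.73e-13), which is 0.166 of the untreated level, and -1.98 in C2C12-pMirn0 cells (limma adjusted p = 5.31e-11), which is 0.254 of it. At d6 it was -1.73 in C2C12-pMirn378 cells (limma adjusted p = 4.54e-10) and -0.72 in C2C12-pMirn0 cells (limma adjusted p = 0.000145). Against d0, Ppargc1b with BMP2 fell by 2.19 at d3 and by 1.83 at d6 in C2C12-pMirn378 cells, and fell by 1.57 at d3 and by 0.99 at d6 in C2C12-pMirn0 cells, all called.

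In order of the group means, Ppargc1b was lowest in C2C12-pMirn378 cells at d3 with BMP2 (7.06), followed by C2C12-pMirn378 at d6 with BMP2 (7.42), C2C12-pMirn0 at d3 with BMP2 (7.54) and C2C12-pMirn0 at d6 with BMP2 (8.12). The 6 groups without BMP2 followed between 8.84 (C2C12-pMirn0 at d6) and 9.65 (C2C12-pMirn378 at d3). Of the 9 pairs of neighbours in this order, 3 had overlapping arrays, namely C2C12-pMirn378 at d6 with BMP2 and C2C12-pMirn0 at d3 with BMP2, C2C12-pMirn378 at d6 untreated and C2C12-pMirn0 at d0, and both untreated groups of d3. For Ppargc1a (1460336_at) only 2 neighbouring pairs did not overlap, the step that divides the groups at d0 or with BMP2 from the untreated groups of d3 and d6, and the step between C2C12-pMirn0 at d6 and C2C12-pMirn0 at d3, both untreated. The 2 coactivators had a Pearson correlation of 0.66 over the 10 group means, given as a description, since the groups share lines and days.

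Between the lines, the 1 call was of Ppargc1b in cells with BMP2. Of the 19 probe sets, none was called between C2C12-pMirn378 and C2C12-pMirn0 cells at d0 (0.763% of all probe sets), at d3 untreated (0.419%), at d6 untreated (0.16%) or at d3 with BMP2 (3.08%), and Ppargc1b alone was called at d6 with BMP2 (1.83%). At d6 with BMP2 its levels were 7.37, 7.50 and 7.39 in C2C12-pMirn378 cells, against 8.07, 8.25 and 8.02 in C2C12-pMirn0 cells, with no overlap. The log2 ratio was -0.70 (95% interval -0.98 to -0.42, limma adjusted p = 0.00153), which is 0.617 of the C2C12-pMirn0 level. The call was lost without C2C12-pMirn378 replicate 1 or 3 or without C2C12-pMirn0 replicate 1 or 2 of that day, at log2 ratios of -0.75 to -0.63 over the 6 arrays left out and a highest limma adjusted p of 0.0134. At d3 with BMP2 the log2 ratio was -0.49 (-0.77 to -0.21, limma adjusted p = 0.019). There C2C12-pMirn0 replicate 3, at 7.14, lay among the C2C12-pMirn378 arrays, and without it the log2 ratio was -0.69 (limma adjusted p = 0.000397) and called.

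Without BMP2 the Ppargc1b differences ran the other way and were small. C2C12-pMirn378 over C2C12-pMirn0 was 0.14 at d0 (-0.14 to 0.42), 0.13 at d3 (-0.15 to 0.41) and 0.31 at d6 (0.03 to 0.59), at limma adjusted p-values of 0.706, 0.896 and 0.403. The difference between the lines in the BMP2 effect was therefore tested directly. At d6 the effect in C2C12-pMirn378 cells minus that in C2C12-pMirn0 cells was -1.00 on the log2 scale (SE 0.19, 95% interval -1.40 to -0.61, limma adjusted p = 0.0026; 1.27% of all probe sets called), and Ppargc1b was the 1 member called. This call was lost in 9 of the 12 fits that left out 1 array, at -1.06 to -0.93 and a highest limma adjusted p of 0.0104. It was kept without C2C12-pMirn0 d6 untreated replicate 1, C2C12-pMirn0 d6 BMP2 replicate 3 or C2C12-pMirn378 d6 BMP2 replicate 2. At d3 it was -0.61 (-1.01 to -0.22, limma adjusted p = 0.0798; 1.24% of all probe sets called), and -0.82 (limma adjusted p = 0.00406) and called without C2C12-pMirn0 d3 BMP2 replicate 3. At d6 with BMP2 the sum of the muscle markers was lower and that of the osteoblast markers higher in C2C12-pMirn378 cells, as given above, and their part in the Ppargc1b difference was not tested.

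For Ppargc1a the lines separated at d6 without BMP2, but no call was reached. With 1460336_at the levels were 7.41, 6.76 and 7.29 in C2C12-pMirn378 cells, against 8.01, 8.19 and 7.93 in C2C12-pMirn0 cells (log2 ratio -0.89, 95% interval -1.91 to 0.13, limma adjusted p = 0.556). With 1456395_at they were 6.74, 6.66 and 6.52 in C2C12-pMirn378 cells, against 7.61, 7.54 and 7.37 in C2C12-pMirn0 cells (-0.87, -1.39 to -0.35, limma adjusted p = 0.127). With 1434099_at they were 5.85, 5.71 and 5.87 in C2C12-pMirn378 cells, against 7.05, 6.60 and 7.12 in C2C12-pMirn0 cells (-1.11). Of the 5 probe sets, which read the same gene, 4 had no overlap between the lines at this day. How many of all probe sets had no overlap was not counted, so that this count has no background. The share called of all probe sets, 0.16%, is not that background. The fit uses 1 standard error per probe set over all 10 groups, those with widely scattered dim values included. When intensities under 50 were set to 50 before the fit, which also removes most of the scatter of the dim groups, the log2 ratios at d6 untreated were the same and 4 of the 5 probe sets were called lower in C2C12-pMirn378 cells, at limma adjusted p-values of 1.44e-05 (1460336_at), 1.1e-06 (1456395_at), 0.000135 (1434100_x_at) and 9.63e-06 (1434099_at). With only the groups compared in the fit, which takes the dim groups out of the standard error, the limma adjusted p-values were 0.178 to 0.59 and none was called, nor was any with the replicate block, trend and robust moderation, quantile normalization or an offset of 16. With BMP2 no Ppargc1a probe set was called between the lines. Its log2 ratios at d6 were 0.49 for 1460336_at (-0.53 to 1.51), 1.59 for 1434099_at (0.09 to 3.09, limma adjusted p = 0.233) and 2.05 for 1434100_x_at (0.64 to 3.46, limma adjusted p = 0.0736), the last called at 2.98 (limma adjusted p = 0.00455) without C2C12-pMirn0 replicate 1. At d3 with BMP2 these 2 dim probe sets differed in opposite directions, at 1.83 for 1434099_at and -1.42 for 1434100_x_at.

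**Figure D2:**
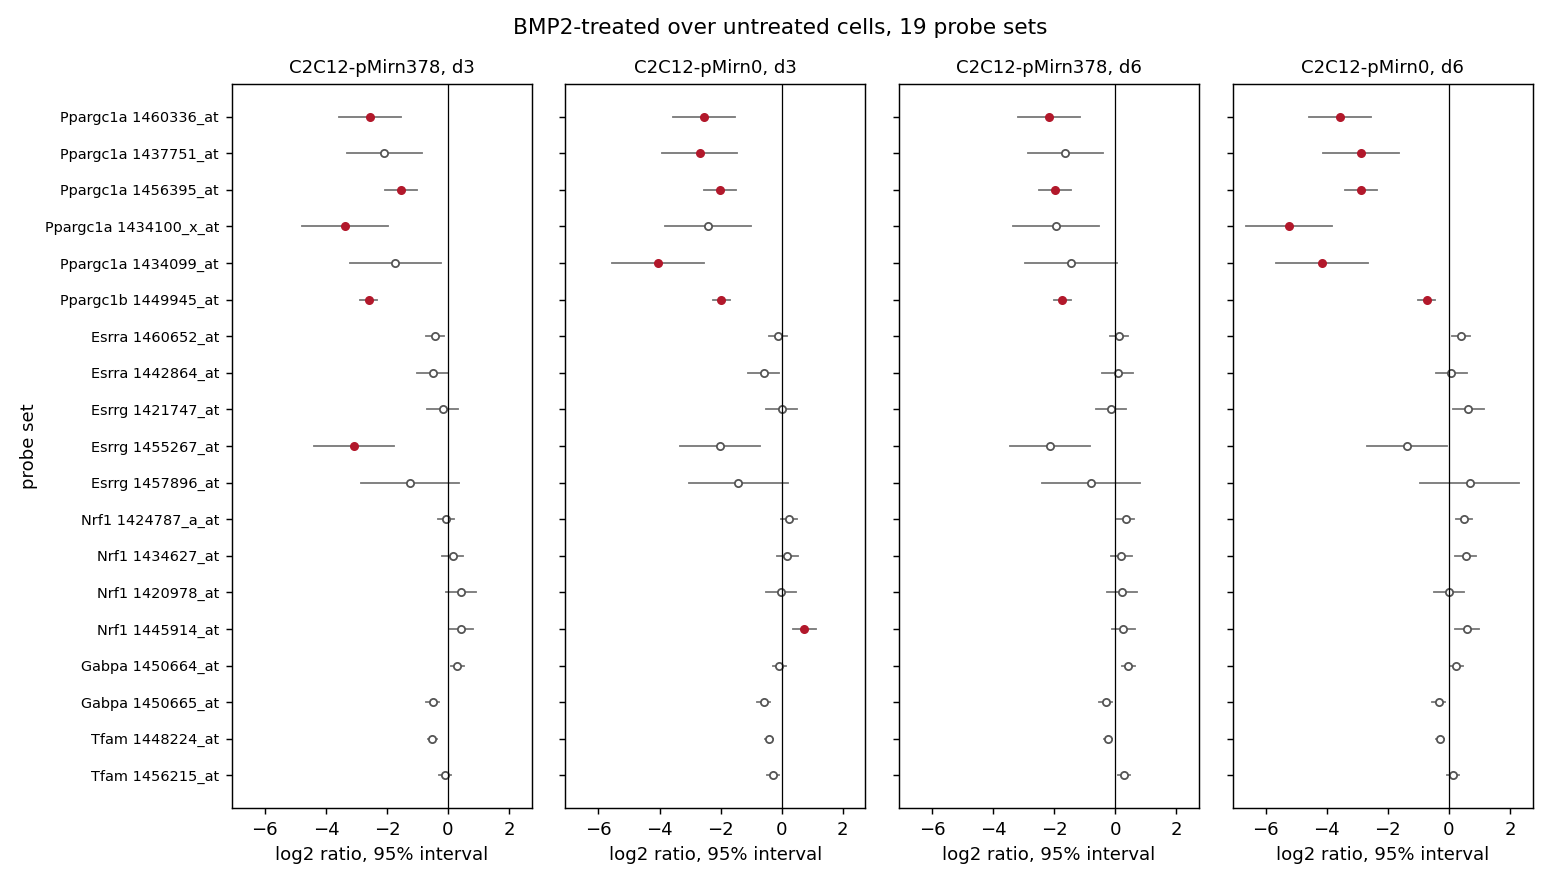
Log2 ratio of BMP2 over untreated with its 95% interval (horizontal axis) for each of the 19 member probe sets (vertical axis), in 1 panel for each line and day. Filled red points were called, open points were not, and lines are the intervals. The Ppargc1a and Ppargc1b ratios all lie left of 0, Ppargc1b from -2.59 to -0.72, whereas the ratios of Esrra, Gabpa and Tfam all lie between -0.60 and 0.60.

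**Figure D3:**
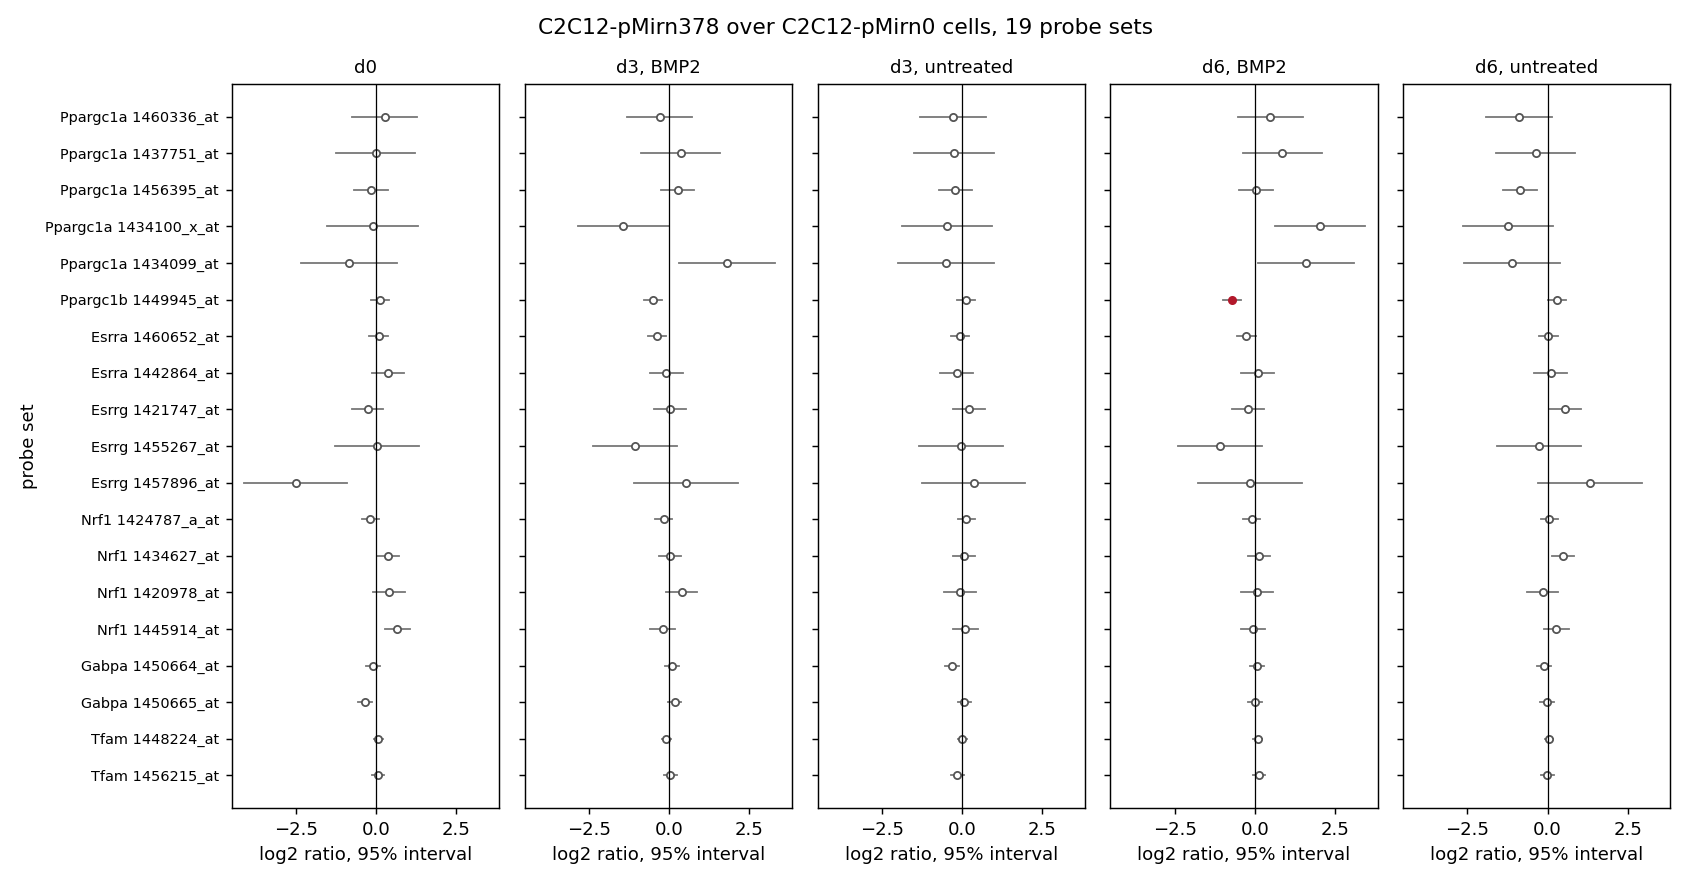
Log2 ratio of C2C12-pMirn378 over C2C12-pMirn0 with its 95% interval (horizontal axis) for each member probe set (vertical axis), in 1 panel for each of the 5 conditions of day and BMP2, with the called point filled red and the others open. Ppargc1b at d6 with BMP2, at -0.70, is the 1 ratio called.

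ERRγ is the estrogen-related receptor that is enriched in oxidative muscle, and Esrrg was measured by 3 dim probe sets that did not run together. With 1455267_at and BMP2, C2C12-pMirn378 cells had log2 levels of 4.77, 1.09 and 4.28 at d3 and 3.08, 4.63 and 4.12 at d6, and C2C12-pMirn0 cells had 3.91, 5.09 and 4.35 at d3 and 4.68, 5.34 and 5.01 at d6. Untreated C2C12-pMirn378 cells had 3.43, 4.55 and 5.46 at d0, 6.54, 6.47 and 6.37 at d3 and 5.97, 6.29 and 6.01 at d6. Untreated C2C12-pMirn0 cells had 4.19, 4.75 and 4.40 at d0, 6.49, 6.65 and 6.27 at d3 and 6.44, 6.20 and 6.47 at d6. As for Ppargc1a, the untreated arrays of d3 and d6 were the high ones and did not overlap with the others of their line. The values with BMP2 and at d0 were all under an intensity of 50, with 1 array of C2C12-pMirn378 at d3 far under the rest.

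At d3 over d0 this Esrrg probe set had log2 ratios of 1.98 in C2C12-pMirn378 cells (SE 0.63, limma adjusted p = 0.0159) and 2.02 in C2C12-pMirn0 cells (limma adjusted p = 0.0149) without BMP2, neither called. BMP2 over untreated was called at d3 in C2C12-pMirn378 cells (-3.08, limma adjusted p = 0.000409), where the ratio was -1.93 without the array at 1.09. The ratio was -2.02 in C2C12-pMirn0 cells at d3 (limma adjusted p = 0.0168), -2.15 in C2C12-pMirn378 cells at d6 (limma adjusted p = 0.0101) and -1.36 in C2C12-pMirn0 cells at d6 (limma adjusted p = 0.107). Probe set 1457896_at was under an intensity of 50 on all 30 arrays. Its calls in untreated C2C12-pMirn378 cells, 3.02 at d3 over d0 and 3.06 at d6 over d0, set levels of 4.34, 5.27 and 4.91 at d3 and 4.88, 4.99 and 4.78 at d6 against 0.66, 2.51 and 2.30 at d0, and each was lost in 5 of 6 fits that left out 1 array. In C2C12-pMirn0 cells this probe set read 3.59, 5.09 and 4.30 at d0, 1.90, 4.60 and 2.66 at d3 with BMP2, 5.04, 5.11 and 3.26 at d3 untreated, 4.10, 3.76 and 4.85 at d6 with BMP2 and 2.62, 2.64 and 5.41 at d6 untreated, with no call. Probe set 1421747_at, the one with the highest mean, was called nowhere and had levels of 5.74, 5.92 and 6.06 at d0, 5.79, 6.11 and 6.21 at d3 with BMP2, 6.29, 6.33 and 6.02 at d3 untreated, 5.95, 5.93 and 6.25 at d6 with BMP2 and 6.31, 6.02 and 6.19 at d6 untreated in C2C12-pMirn378 cells. Its C2C12-pMirn0 levels were 5.81, 6.93 and 5.76 at d0, 5.87, 5.97 and 6.14 at d3 with BMP2, 6.17, 6.10 and 5.72 at d3 untreated, 6.60, 6.27 and 5.89 at d6 with BMP2 and 5.36, 5.58 and 5.92 at d6 untreated. All but 2 arrays had an intensity of at least 50, and its correlation with 1455267_at over the 10 group means was -0.11.

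The first of 4 Esrrg promoters in RefSeq is shown because a muscle motif lies next to its start site. It is chr1:187608756-187609005 of GRCm38.p6, plus strand, 250 bases before the start site, 5′ to 3′.
Esrrg: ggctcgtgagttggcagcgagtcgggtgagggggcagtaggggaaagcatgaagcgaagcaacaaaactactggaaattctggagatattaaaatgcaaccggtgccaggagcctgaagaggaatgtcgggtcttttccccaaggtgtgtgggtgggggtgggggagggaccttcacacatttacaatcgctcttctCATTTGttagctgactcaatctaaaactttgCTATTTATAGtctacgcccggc
The capitals mark 1 E-box and a match to the MEF2 motif, CTATTTATAG, at positions -22 to -13 from the start site. A MEF2 match occurs in 3.2% of the 32851 promoters. The other Esrrg windows held no MEF2 match. The share is that of single promoters, whereas this window was picked out of 4 for its match. Which of the 4 promoters the array's probes report on was not examined.

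ERRα, the widely expressed receptor of the pair, showed no call with either probe set in any comparison. The group means of Esrra 1460652_at lay between 8.98 and 9.56, a span of 0.58, while its SD within groups was 0.17. The lowest group was C2C12-pMirn378 at d3 with BMP2, with levels of 8.84, 9.00 and 9.11, against 9.27, 9.37 and 9.40 in C2C12-pMirn0 cells of the same day and treatment. These groups did not overlap, at a log2 ratio of -0.36 (95% interval -0.65 to -0.07, limma adjusted p = 0.108). Against its d0 levels of 9.56, 9.50 and 9.64, this C2C12-pMirn378 group was at -0.58 (limma adjusted p = 0.0018), past the p threshold and within the ratio threshold. Over all groups, Esrra 1460652_at read 9.56, 9.50 and 9.64 at d0, 8.84, 9.00 and 9.11 at d3 with BMP2, 9.34, 9.50 and 9.37 at d3 untreated, 9.54, 9.01 and 9.27 at d6 with BMP2 and 9.07, 9.41 and 8.96 at d6 untreated in C2C12-pMirn378 cells. In C2C12-pMirn0 cells it read 9.53, 9.47 and 9.43 at d0, 9.27, 9.37 and 9.40 at d3 with BMP2, 9.29, 9.49 and 9.59 at d3 untreated, 9.34, 9.45 and 9.79 at d6 with BMP2 and 8.89, 9.21 and 9.27 at d6 untreated. Esrra 1442864_at had group means within 0.68 of each other. At d3 it was lower with BMP2 without overlap and without a call. Its levels were 6.63 to 6.94 with BMP2 against 7.22 to 7.35 untreated in C2C12-pMirn378 cells. In C2C12-pMirn0 cells they were 6.68 to 7.17 with BMP2 against 7.35 to 7.54 untreated. At d6 the arrays with and without BMP2 overlapped in both lines.

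NRF1, a nuclear respiratory factor that binds the promoters of many respiratory chain genes, was called lower after d0 than at d0 with 3 of its 4 probe sets, with 1 of them in every comparison with d0. With Nrf1 1434627_at, C2C12-pMirn378 cells had log2 levels of 8.47, 8.58 and 8.55 at d0, 7.31, 7.44 and 7.06 at d3 with BMP2, 7.24, 7.17 and 6.97 at d3 untreated, 7.61, 7.08 and 7.59 at d6 with BMP2 and 7.17, 7.30 and 7.22 at d6 untreated. C2C12-pMirn0 cells had 7.99, 8.27 and 8.16 at d0, 7.18, 7.39 and 7.16 at d3 with BMP2, 7.40, 6.90 and 6.88 at d3 untreated, 7.29, 7.34 and 7.25 at d6 with BMP2 and 7.07, 6.37 and 6.79 at d6 untreated. The d0 arrays of each line lay above all of its later arrays. All 8 comparisons with d0 were called lower. In C2C12-pMirn378 cells the log2 ratios were -1.26 at d3 and -1.11 at d6 with BMP2, and -1.41 at d3 and -1.30 at d6 untreated (SE 0.17). In C2C12-pMirn0 cells they were -0.90 at d3 and -0.85 at d6 with BMP2, and -1.08 at d3 and -1.40 at d6 untreated, at limma adjusted p-values of at most 0.000238 over all 8.

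The other Nrf1 probe sets fell less or less often. The brightest, 1424787_a_at, had levels of 8.47, 8.34 and 8.43 at d0, 8.04, 7.95 and 7.55 at d3 with BMP2, 7.82, 8.09 and 7.83 at d3 untreated, 8.13, 8.09 and 8.20 at d6 with BMP2 and 7.63, 8.02 and 7.76 at d6 untreated in C2C12-pMirn378 cells. In C2C12-pMirn0 cells its levels were 8.70, 8.50 and 8.56 at d0, 8.05, 8.04 and 7.94 at d3 with BMP2, 7.73, 7.64 and 7.95 at d3 untreated, 8.20, 8.46 and 8.06 at d6 with BMP2 and 7.86, 7.58 and 7.80 at d6 untreated. It was called lower at d6 over d0 in C2C12-pMirn378 cells (-0.61) and at d3 (-0.81) and d6 (-0.84) in C2C12-pMirn0 cells, and not with BMP2, where its 4 log2 ratios over d0 were -0.58 to -0.27. Probe set 1445914_at read 7.29, 7.38 and 7.96 at d0, 6.69, 6.89 and 7.06 at d3 with BMP2, 6.35, 6.22 and 6.74 at d3 untreated, 6.51, 6.92 and 6.58 at d6 with BMP2 and 6.26, 6.65 and 6.30 at d6 untreated in C2C12-pMirn378 cells. Its C2C12-pMirn0 levels were 6.70, 7.06 and 6.86 at d0, 7.13, 6.99 and 7.09 at d3 with BMP2, 6.54, 6.31 and 6.11 at d3 untreated, 6.89, 6.67 and 6.61 at d6 with BMP2 and 6.03, 5.91 and 6.44 at d6 untreated. It was called lower without BMP2 in C2C12-pMirn378 cells at d3 (-1.11) and d6 (-1.14) and in C2C12-pMirn0 cells at d6 (-0.75), and with BMP2 in C2C12-pMirn378 cells at d6 (-0.88). Over d0, the ratios of this probe set in BMP2-treated C2C12-pMirn0 cells were 0.19 (d3) and -0.15 (d6), with overlapping arrays. At d3 in C2C12-pMirn0 cells it was higher with BMP2 (7.13, 6.99 and 7.09) than untreated (6.54, 6.31 and 6.11), at 0.75 (limma adjusted p = 0.00289), a call lost in 5 of 6 fits that left out 1 array. Probe set 1420978_at was called nowhere, with log2 ratios below 0 in all 8 comparisons with d0, at -0.80 to -0.23. Over the 10 group means the 4 probe sets correlated at 0.60 to 0.86.

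For Gabpa, whose product pairs with a GABPβ subunit, the 2 probe sets ran in opposite directions, with a correlation of -0.63 over the 10 group means. With 1450665_at, C2C12-pMirn0 cells had levels of 8.92, 8.71 and 8.61 at d0, 7.72, 7.79 and 7.93 at d3 with BMP2 and 8.13, 8.04 and 7.93 at d6 with BMP2. The log2 ratio over d0 was -0.94 at d3 (limma adjusted p = 1.31e-07) and -0.71 at d6 (limma adjusted p = 7.12e-06), both called. C2C12-pMirn378 cells started lower, at 8.41, 8.26 and 8.54 at d0, and had 7.82, 8.08 and 8.07 at d3 and 8.15, 7.96 and 8.01 at d6 with BMP2, at -0.42 and -0.36, neither called. Untreated, C2C12-pMirn378 cells had 8.41, 8.46 and 8.59 at d3 and 8.33, 8.30 and 8.43 at d6, and C2C12-pMirn0 cells had 8.39, 8.55 and 8.26 at d3 and 8.44, 8.23 and 8.43 at d6. With the brighter 1450664_at, the levels at d6 were 11.82, 11.87 and 12.07 in C2C12-pMirn378 cells with BMP2, against 11.45, 11.47 and 11.53 untreated, at 0.43 (limma adjusted p = 0.0019), within the ratio threshold. In C2C12-pMirn0 cells they were 11.97, 11.75 and 11.83 with BMP2, against 11.76, 11.48 and 11.57 untreated, at 0.24 (limma adjusted p = 0.0768). At d0 and d3 this probe set stayed between 11.21 and 11.96 in all arrays of both lines. No direction can therefore be given for Gabpa as a gene.

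Tfam was measured with the smallest scatter of the members, an SD within groups of 0.07 for 1448224_at, and with this probe set was slightly lower with BMP2. At d3 its levels were 10.48, 10.64 and 10.55 in C2C12-pMirn378 cells with BMP2, against 11.06, 11.01 and 11.12 untreated. In C2C12-pMirn0 cells at d3 they were 10.54, 10.64 and 10.72 with BMP2, against 10.96, 11.12 and 11.05 untreated. The log2 ratio of BMP2 over untreated was -0.51 in C2C12-pMirn378 cells (SE 0.07, limma adjusted p = 1.36e-06) and -0.41 in C2C12-pMirn0 cells (limma adjusted p = 2.91e-05) at d3. At d6 the levels were 10.69, 10.81 and 10.74 in C2C12-pMirn378 cells with BMP2, against 10.97, 10.97 and 11.01 untreated, and 10.67, 10.65 and 10.62 in C2C12-pMirn0 cells with BMP2, against 10.88, 11.02 and 10.92 untreated. The d6 log2 ratios were -0.24 in C2C12-pMirn378 cells (limma adjusted p = 0.00664) and -0.29 in C2C12-pMirn0 cells (limma adjusted p = 0.0011). No BMP2 array overlapped with an untreated array of its line and day, and all 4 ratios were within the ratio threshold.

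Against d0, where Tfam was 11.27, 11.18 and 11.18 in C2C12-pMirn378 cells, d3 with BMP2 was called in that line (-0.65, limma adjusted p = 2.69e-08). In C2C12-pMirn0 cells, at 11.20, 11.16 and 11.05 at d0, the ratio was -0.50 (limma adjusted p = 1.64e-06). Between the lines 1448224_at differed by at most 0.10 in any of the 5 groups, and the 95% intervals ran from -0.21 to 0.24. Over the 10 group means, Tfam 1448224_at and Ppargc1b had a Pearson correlation of 0.91, while the range of the means was 0.65 for Tfam and 2.59 for Ppargc1b. The dimmer 1456215_at was called nowhere and spanned 0.41, and at d6 it ran the other way with BMP2. Its levels there were 8.31, 8.31 and 8.39 in C2C12-pMirn378 cells with BMP2, against 7.94, 8.03 and 8.19 untreated (log2 ratio 0.29, limma adjusted p = 0.0239), and 8.07 to 8.29 in C2C12-pMirn0 cells with BMP2, against 7.99 to 8.19 untreated (0.14, limma adjusted p = 0.297). At d3 the ratios of 1456215_at were -0.11 in C2C12-pMirn378 cells and -0.29 in C2C12-pMirn0 cells, and between the lines it differed by -0.14 to 0.14 over the 5 groups.

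The Tfam promoter is shown because its GABP motif lies close to the start site. It is chr10:71238045-71238294 of GRCm38.p6 in RefSeq, minus strand, 250 bases before the start site, 5′ to 3′.
Tfam: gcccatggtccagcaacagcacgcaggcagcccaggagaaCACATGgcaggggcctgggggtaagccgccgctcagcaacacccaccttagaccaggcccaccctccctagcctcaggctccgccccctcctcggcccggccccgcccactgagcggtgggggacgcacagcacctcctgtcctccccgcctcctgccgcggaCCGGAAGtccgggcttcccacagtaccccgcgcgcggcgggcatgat
The capitals mark 1 E-box and 1 GABP motif (CCGGAAG, searched on both strands) at positions -47 to -41 from the start site. This motif occurs in 6.91% of the 32851 promoters. The Gabpa promoter holds a GABP match on its minus strand at positions -93 to -87, and that of Esrra holds an NRF1 core (GCATGCGC) at positions -34 to -27, a motif found in 2.26% of promoters. The ERR core (4.08% of promoters) and the longer NRF1 motif (GCGCA and GCGC with any base between them, 3.74%) were in none of the members' windows searched.

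**Figure D4:**
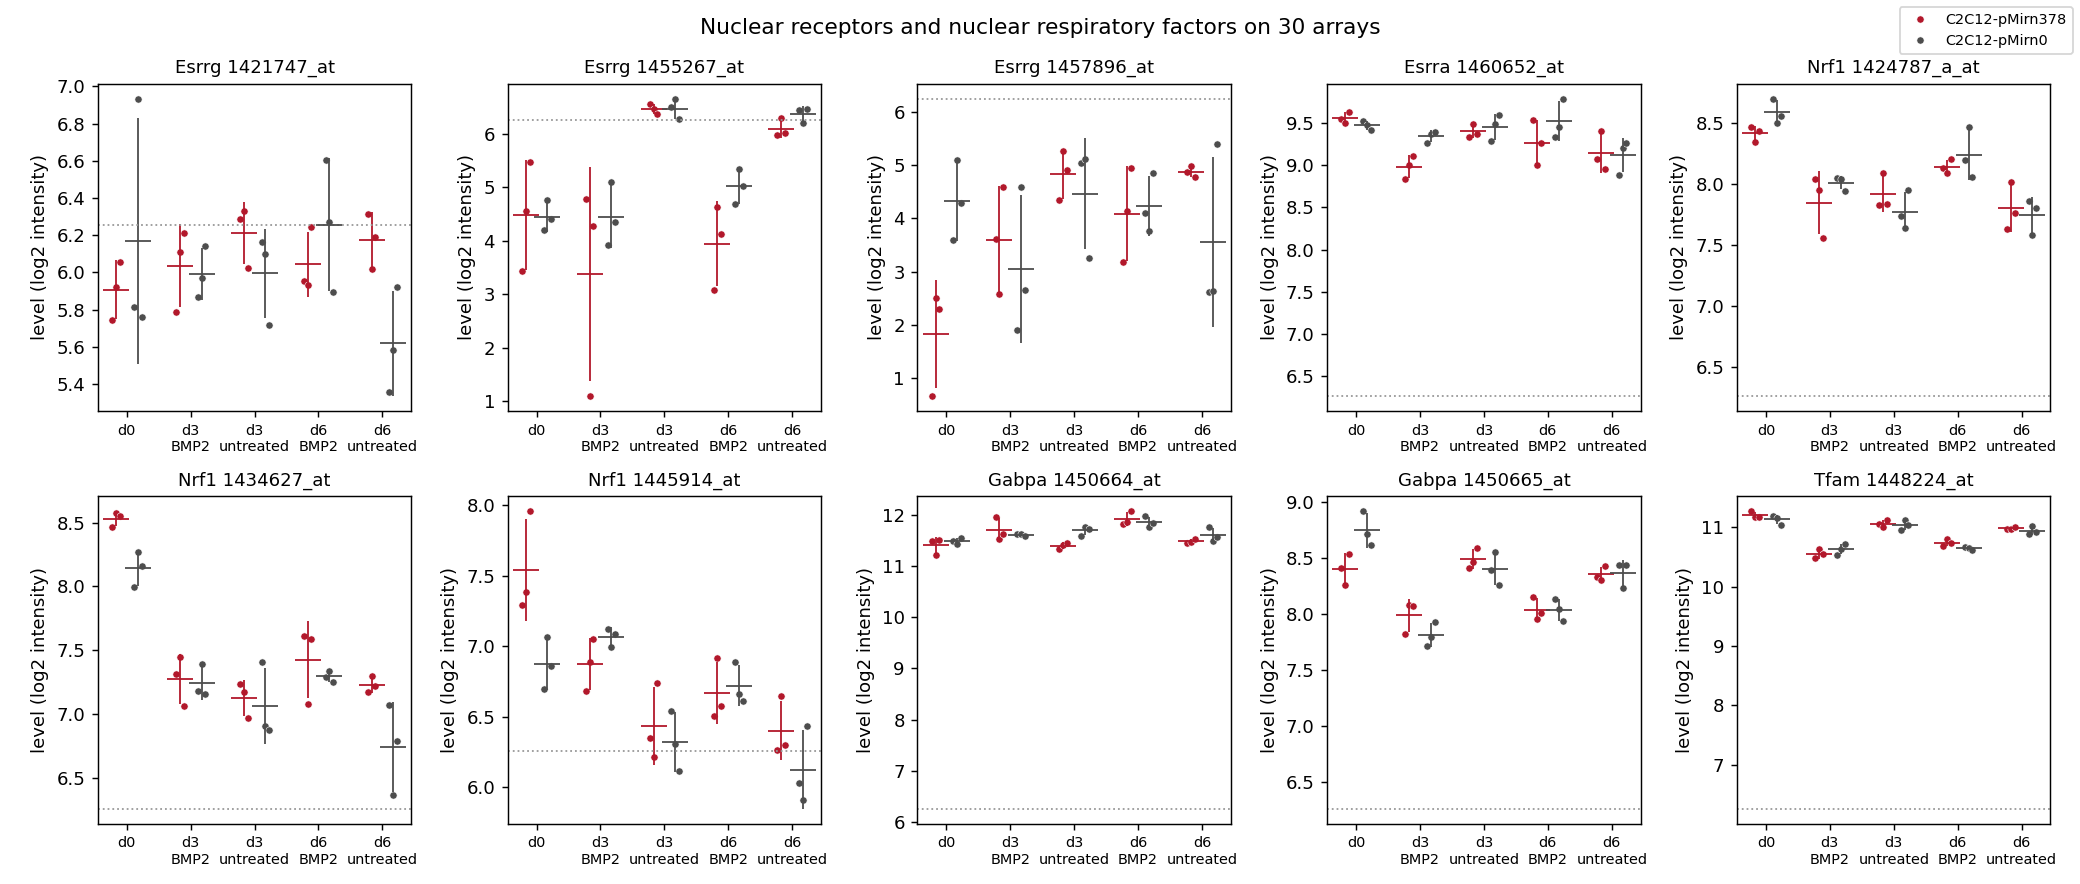
Log2 intensity (vertical axis) of Esrra, Esrrg, Nrf1, Gabpa and Tfam probe sets in each of the 30 arrays by day and BMP2 (horizontal axis), with C2C12-pMirn378 in red left of C2C12-pMirn0 in grey. Points are arrays, horizontal bars are means and vertical bars are ± 1 SD (n = 3); Nrf1 1434627_at is highest at d0, and Esrrg 1455267_at is highest in the untreated groups of d3 and d6. The dotted line is the median of all values, 6.26.

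Genes around the members were read from 4 lists, with the brightest probe set for each gene. At d6 over d0 in untreated C2C12-pMirn0 cells, where 24.2% of 18194 genes were called, the coregulators and partners had 2 of 18 measured genes higher and 4 lower, with a median log2 ratio of -0.36 against -0.07 over all genes. Prkaa2, the catalytic AMP-activated kinase subunit enriched in muscle, was higher (2.24), as was Lpin1, a lipin that acts with PGC-1α in liver (1.36). Kat2a, the acetyltransferase GCN5 that acetylates PGC-1α, was lower (-1.37), as was Pprc1, the third coactivator of the PGC-1 family (-1.26). Pprc1 was highest in proliferating cells, at an intensity of 1226 ± 129 at d0, 577 ± 32.8 at d3 and 510 ± 34.2 at d6 in untreated C2C12-pMirn0 cells (SD, n = 3), a course opposite to that of Ppargc1a. At d6 it was 929 ± 70.8 in C2C12-pMirn378 cells with BMP2, against 544 ± 41.3 untreated, and 917 ± 42.6 in C2C12-pMirn0 cells with BMP2, against 510 ± 34.2 untreated.

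In the same comparison the genes for copying and transcribing mitochondrial DNA had 0 of 11 higher and 1 lower, Polg, the mitochondrial DNA polymerase (-0.67), with a median of -0.18. The targets named for PGC-1 or ERR in muscle had 4 of 18 higher and 1 lower, with a median of 0.08. The 4 were Cox6a2, the muscle form of a cytochrome c oxidase subunit (5.43), Ckmt2, a mitochondrial creatine kinase (4.44), Fabp3, a fatty acid binding protein (3.72), and Mb, myoglobin (3.20). All of these are also genes of differentiated muscle, and the muscle marker sums of these arrays are given above. Pdk4, another gene of this list, ran opposite to Ppargc1a. In C2C12-pMirn0 cells its mean intensity was 1673 at d0, 740 at d6 untreated and 1970 at d6 with BMP2. In C2C12-pMirn378 cells it was 1679 at d0, 687 at d6 untreated and 1709 at d6 with BMP2. Upstream regulators had 3 of 9 higher, Mef2c (4.81), Ppp3ca, the calcineurin catalytic subunit (1.11), and Mef2d (0.76), and 0 lower.

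At d6 over d0 in C2C12-pMirn0 cells with BMP2, where 22.1% of genes were called, the coregulators had 5 of 18 higher and 1 lower, with a median of 0.13 against -0.01 over all genes. Lpin1 (1.70), the coactivator Ncoa1 (1.20), Prkaa2 (1.01) and the nuclear receptor Pparg (0.95) led them. Of the mitochondrial DNA genes, 1 of 11 was called, Lonp1, the mitochondrial matrix protease (1.82, higher). Of the targets, 2 of 18 were higher, Cox6a2 (3.60) and Vegfa, an angiogenic growth factor (1.45), and Idh3a, a subunit of a citric acid cycle enzyme, was lower (-0.76). Upstream, Ppp3ca was higher (1.78) and the myogenic factor Myod1 lower (-0.72), of 9 genes.

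Between the lines with BMP2, none of the 18 coregulators was called at d3 (4.38% of all genes called) or at d6 (2.85%). At d3, Lonp1 was lower in C2C12-pMirn378 cells (-1.26, limma adjusted p = 3.54e-09), with an intensity of 1574 ± 206, against 3765 ± 239 in C2C12-pMirn0 cells (SD, n = 3 each). Cox6a2 was lower as well (-2.24, limma adjusted p = 4.8e-09), with 216 ± 51.9 in C2C12-pMirn378 cells, against 999 ± 21.5 in C2C12-pMirn0 cells. At d6, Cox6a2 (-1.24), Mb (-0.75), Mef2c (-0.66) and Myod1 (-0.62) were lower in C2C12-pMirn378 cells, and no mitochondrial DNA gene was called. Osteoblast markers summed at d3 with BMP2 to 6344 to 7065 in C2C12-pMirn378 cells, against 3409 to 3595 in C2C12-pMirn0 cells, and their part in these differences was not tested.

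Among 10288 other genes at or above the median level, the patterns most like Ppargc1a (1460336_at) over the 10 group means were those of Ptgds (Pearson r = 0.990), which encodes a prostaglandin D synthase, Myl2 (0.987), a slow muscle myosin light chain, and Mybpc1 (0.986), a myosin binding protein. For Ppargc1b they were Lrrc8d (0.980), Gatm (0.977) and Sarnp (0.977), among 10287 genes. These correlations describe 10 groups that share lines, days and treatments, and no test was made of them.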

How the data were processed

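Total RNA was amplified and labelled, and the fragmented product was hybridised to Affymetrix mouse genome arrays. The methods of the study and the submitters' processing notes give the Affymetrix Command Console, RMA in R 2.4.1 and quantile normalization. The authors deposited 1 intensity per probe set and array on the linear scale (0.0561 to 40201), without detection calls, and the RMA step was not checked. Of all values, 0.407% were under 1 (1 of the 570 member values), which is unlike usual RMA output, and the size of log2 ratios between dim values is uncertain for that reason. Intensities were turned to log2 with no offset, and 1 limma 3.58.1 model (R 4.3.3) of the 10 groups gave 23 contrasts on all 30 arrays. Empirical Bayes moderation added 1.2 prior to 20 residual degrees of freedom. The Benjamini-Hochberg adjustment ran over all probe sets of each contrast, and the thresholds are those of the methods. The fit was tested on simulated data.

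Groups and replicate numbers came from the labels. Of the probe sets, 34958 carry 1 symbol, 932 several and 9211 none. Entrez numbers matched a RefSeq gene table for 34754, which changed 0 symbols. Every member is named, with array values for the brightest probe set and those called in any contrast. From each list up to 4 called genes with the largest ratio were named in 4 contrasts (C2C12-pMirn0 at d6 over d0, untreated and with BMP2, and the lines at d3 and d6 with BMP2), and the 3 most correlated genes for a member whose brightest probe set spanned over 1 log2 unit. Pdk4 was named beyond this rule, since it ran opposite to Ppargc1a. Not analysed here were Ncor1, Cpt1b and Ucp2, of which the probe sets used hold none. Atp5f1b was matched under its older symbol. The members, lists and tests were chosen with earlier results of these data known. The number of arrays limits the precision. The alternatives tried were a replicate block, a level filter, a fit on the contrast's groups only, trend and robust moderation, quantile normalization, an offset of 16, a floor of 50, leaving out each array, the methods' rule for courses and another probe set for each listed gene.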

Additional observations from a re-analysis of the deposited data

Results flagged for a closer look

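The lowering of Ppargc1b by BMP2 at d6 differed between the lines by -1.00 on the log2 scale (C2C12-pMirn378 minus C2C12-pMirn0, SE 0.19, limma adjusted p = 0.0026), which drew attention because it is a difference between groups under the same contrast. BMP2 over untreated was -1.73 in C2C12-pMirn378 cells and -0.72 in C2C12-pMirn0 cells, and all 3 C2C12-pMirn378 arrays with BMP2 lay under the 3 of C2C12-pMirn0. The call was lost in 9 of the 12 fits that left out 1 array. It was also lost with quantile normalization and with only the contrast's own groups in the fit.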

How the results depend on the processing

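Of the 61 calls over 437 tests (19 probe sets in 23 contrasts), none changed direction under any alternative. The replicate block kept all 61 calls and added 0, and the numbers were not taken as pairs, since not every pair of arrays with the same number had deviations correlated above 0.1. Their mean correlation was 0.04 (-0.17 to 0.23 over 135 pairs, 24 over 0.1), against -0.02 for different numbers, and 21 of the 30 arrays were closest to their own number, a hint from the data and not from the design. Trend and robust moderation added 2 calls and lost 0.

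When only probe sets with a mean at or above the median were kept, which leaves out Ppargc1a and Esrrg, the calls were 2 at d3 over d0 and 4 at d6 over d0 in untreated C2C12-pMirn378 cells, 2 at d3 over d0 and 3 at d6 over d0 in untreated C2C12-pMirn0 cells, and for BMP2 over untreated 1 at d3 and 1 at d6 in C2C12-pMirn378 cells and 2 at d3 and 1 at d6 in C2C12-pMirn0 cells. With only the contrast's own groups in the fit (4 residual degrees of freedom for a pair of groups), 33 calls were lost and 5 added. Then 1 call remained at d6 over d0 in C2C12-pMirn378 cells with BMP2, 0 at d6 over d3 in untreated C2C12-pMirn0 cells, 1 at d3 over d0 in C2C12-pMirn0 cells with BMP2, 2 for BMP2 over untreated at d3 in C2C12-pMirn378 cells, 3 at d3 and 1 at d6 in C2C12-pMirn0 cells, 0 at d6 with BMP2 between the lines, and 0 for the difference in the BMP2 effect at d6.

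With quantile normalization the calls were 6 at d3 over d0 in C2C12-pMirn378 cells with BMP2, 1 at d6 over d3 in C2C12-pMirn0 cells with BMP2 and 0 for the difference in the BMP2 effect at d6, where Ppargc1b was at -0.97 (limma adjusted p = 0.00524). With an offset of 16 there were 7 calls for BMP2 over untreated at d6 in C2C12-pMirn378 cells. With values under 50 set to 50 there were 3 calls at d6 over d3 in untreated C2C12-pMirn0 cells and 4 between the lines at d6 untreated, all 4 of Ppargc1a. For the difference in the BMP2 effect at d6 there were 5, Ppargc1b (-1.00) and 4 Ppargc1a probe sets in the opposite direction (0.84 to 1.23). Without the floor these 4 were at 0.91 to 3.28 and not called. With it, 1434099_at, 1434100_x_at and 1456395_at were at 1.11, 1.23 and 0.87. These are the untreated differences between the lines at d6 (-1.11, -1.23 and -0.87) with the sign turned. For 1460336_at the values were 0.84 and -0.89. The Ppargc1a calls are therefore not separate from those between the lines untreated, and the cause of the untreated differences was not tested. The methods' rule for courses lost 1 of 20 calls.

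When 1 array was left out at a time, the calls at d3 over d0 were 3 to 4 in C2C12-pMirn378 cells untreated and 3 to 5 with BMP2, and 4 to 5 in C2C12-pMirn0 cells untreated. At d6 over d0 they were 3 to 6 in C2C12-pMirn378 cells untreated and 2 to 3 with BMP2. At d6 over d3 in C2C12-pMirn0 cells they were 0 to 1 untreated and 0 to 1 with BMP2. Between the lines with BMP2 they were 0 to 1 at d3 and 0 to 1 at d6, and for the difference in the BMP2 effect 0 to 1 at d3 and 0 to 1 at d6.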
